A study of Mus musculus with 9 samples.

Results

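Semaphorins, plexins and neuropilins, the ligands and receptors of one family of axon guidance cues, were followed in RNA-seq libraries of newborn (P0) mouse cortex. The members were the genes whose symbols name a semaphorin of class 3 to 7, a plexin or a neuropilin. This rule found 31 of the 24624 genes in the table, namely 20 semaphorins, 9 plexins and 2 neuropilins, and each of the 31 passed the filter on low values (a mean of at least 10 over the 9 libraries). The study asked whether FEZF2, a zinc-finger transcription factor of deep-layer cortical neurons, acts in the cortex as a repressor. Its 3 groups were wild-type cortices (Fezf2+/+, n = 3), cortices with both Fezf2 alleles replaced by a reporter knock-in (Fezf2-/-, n = 4), and Fezf2-/- cortices that also carried a BAC transgene expressing the FEZF2 DNA-binding domain joined to the Engrailed repressor domain from the Fezf2 locus (Fezf2-/-; Fezf2-EnR, n = 2). The transgene came from a single line, and RNA was taken from both hemispheres of each pup without sorting, so that fewer cells of a type and less RNA per cell cannot be told apart.

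Semaphorins are secreted or membrane-bound proteins that mostly repel, and in some settings attract, growing axons. Class 3 semaphorins are secreted, and most of them bind a neuropilin, which has little signaling capacity of its own and acts with a class A plexin. The other classes are anchored in the membrane and bind plexins directly. The intracellular part of a plexin acts on small GTPases of the Ras and Rap families and on the cytoskeleton of the growth cone. In the developing cortex these genes are known for guiding callosal, corticospinal and thalamocortical axons, and for steering migrating neurons.

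Between 18716575 and 25127623 reads per library stood behind the values, which are reads divided by the library's size factor. Fezf2 had values of 979 to 1232 in Fezf2+/+ libraries, 193 to 242 in Fezf2-/- libraries, and 907 and 1001 in the Fezf2-/-; Fezf2-EnR libraries, where reads from the transgene would also be counted if they fall in its exons. The litters were uneven. Litter m1 gave 2 Fezf2+/+ and 2 Fezf2-/- pups, litter m2 gave 1 Fezf2+/+ and 1 Fezf2-/-; Fezf2-EnR pup, and litter m3 gave 2 Fezf2-/- pups and 1 Fezf2-/-; Fezf2-EnR pup. By Xist, a transcript of the inactive X chromosome, and Y-linked genes, 3 libraries were female, namely bc201 (Fezf2+/+), bc208 and bc209 (both Fezf2-/-; Fezf2-EnR), so that sex and the transgene cannot be told apart against the Fezf2-/- libraries. The summed value of the 5 measured striatal neuron markers was 2817 in bc204 (Fezf2-/-) and 2173 in bc208 (Fezf2-/-; Fezf2-EnR), and 924 to 1672 in the other 7 libraries. The sum joins markers that moved in opposite directions. Ppp1r1b had 856 to 1084 in Fezf2+/+ libraries, and 858, 396, 431 and 272 in Fezf2-/- libraries bc204 to bc207. Rgs9 had 260 to 275 in Fezf2+/+ and 297 to 351 in Fezf2-/- libraries. The summed value of the 6 interneuron markers was 5582 to 5925 in Fezf2+/+, 7014 to 7808 in Fezf2-/-, and 5910 and 6514 in Fezf2-/-; Fezf2-EnR libraries. In Fezf2+/+ and Fezf2-/- libraries, the sums were 4849 to 5148 and 5512 to 5780 for the 5 markers of oligodendrocyte precursors, and 12036 to 12492 and 12784 to 15159 for the 5 markers of radial glia and astrocytes, again without overlap. With the transgene they were 5391 and 5411, and 14054 and 15342. The sum of the 4 thalamic neuron markers, 796 to 886 in Fezf2+/+ and 1093 to 1427 in Fezf2-/- libraries, was carried by Slc17a6, which had 673 to 784 and 975 to 1296 (adjusted p 0.0367 by limma), while Tcf7l2 and Lef1 overlapped and Gbx2 did not pass the filter. The 3 red blood cell markers summed to 4232 to 6278 in Fezf2+/+, 3705 to 6661 in Fezf2-/-, and 3114 and 3257 in Fezf2-/-; Fezf2-EnR libraries. The sums of endothelial, pericyte, meningeal fibroblast and microglial markers overlapped between Fezf2+/+ and Fezf2-/- libraries. Of the meningeal markers, Lum, a gene of low value, had 17.9 to 22.8 and 1.04 to 4.36 (adjusted p 0.0176 by limma). With the transgene Lum was at 24.9 and 13.1 (adjusted p 0.0426 against Fezf2-/- by limma). All 7 cortical projection neuron markers were detected, and the median of their log2 fold changes in Fezf2-/- against Fezf2+/+ cortex was -0.02. Of them Emx1 was called lower, with 512 to 579 in Fezf2+/+ and 376 to 428 in Fezf2-/- libraries (log2 fold change -0.44, adjusted p 0.0296 by limma). Slc17a7 went the other way without overlap, with 2115 to 2385 and 2631 to 3945 (log2 fold change 0.51, adjusted p 0.438 by limma). With the transgene Slc17a7 was at 2834 and 1271. The summed value of the 4 choroid plexus markers did not exceed 23.1 in any library.

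Levels of the 31 genes were first ordered in Fezf2+/+ cortex, per kb of exon so that genes could be compared with each other. Sema7a, a GPI-anchored semaphorin that binds Plxnc1 and β1 integrin, had the highest level at 1321 ± 71.8 per kb (SD, n = 3). Next came 3 plexins, Plxna4 at 680 ± 62.9, Plxna1 at 662 ± 37.2 and Plxnd1 at 559 ± 70.7 per kb, and the first pair differed by less than its spread. Sema6b, a transmembrane ligand of class A plexins, followed at 477 ± 15.8, and Plxna2 was at 417 ± 22.5, Sema4c at 407 ± 27.9 and Sema6c at 390 ± 24.0 per kb. These last 3 could not be separated beyond their spread.

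The secreted class 3 ligands had lower means per kb than the class A plexins and Plxnd1. The highest of these ligands was Sema3c at 238 ± 27.8 per kb, followed by Sema3f at 142 ± 9.79 and Sema3a at 99.3 ± 12.5. These 3 had higher means than both neuropilins, and Sema3c lay within the spread of Plxna3 (251 ± 18.9). Sema3e (21.8 ± 2.46), Sema3d (10.7 ± 1.68), Sema3b (7.0 ± 3.3) and Sema3g (4.07 ± 0.11) took 4 of the 5 lowest places, and Plxnb3 (3.31 ± 0.43) the last. The neuropilins stood at 80.4 ± 12 per kb (Nrp1) and 54.3 ± 16 (Nrp2) in Fezf2+/+ cortex. In Fezf2-/- cortex Nrp2 was at 181 ± 54.2 and Nrp1 at 93.0 ± 4.79 per kb.

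**Figure D1:**
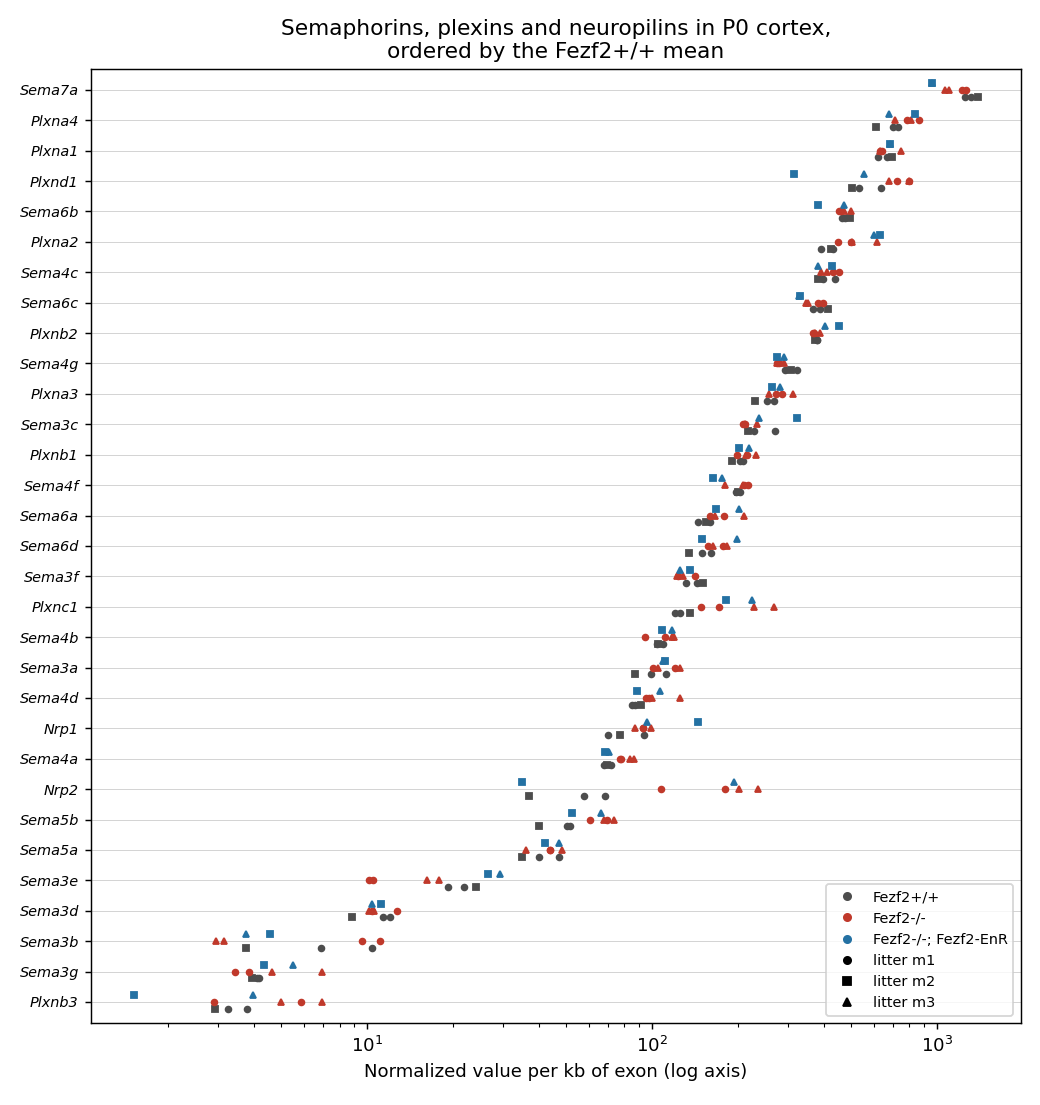
Normalized value per kb of exon (x axis, log scale) of the 31 genes (y axis, ordered by the Fezf2+/+ mean) in each of the 9 libraries, coloured by genotype and with the marker showing the litter. Sema7a is at the top with a Fezf2+/+ mean of 1321 per kb and Plxnb3 at the bottom with 3.31, and Nrp2 is spread over the widest range of the genes above 50 per kb.

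Loss of Fezf2 was examined by comparing Fezf2-/- with Fezf2+/+ cortices. The largest difference was in Nrp2, the co-receptor of Sema3f, which was 3.34 times as high in Fezf2-/- as in Fezf2+/+ cortex. Plxnc1, Sema5b, Plxnd1 and Plxna2 were also higher, by ratios of 1.60, 1.43, 1.34 and 1.24, and Sema3e was lower, at a ratio of 0.63. None of these passed the adjusted threshold: limma with Benjamini-Hochberg adjustment over the 16197 genes tested called 0 of 31 genes at an adjusted p under 0.05, where it called 0.858% of all genes. The edgeR quasi-likelihood test on recovered reads also called 0, beside 142 of all genes. DESeq2 called 2, Plxnc1 and Sema5b, beside 315 of all genes where limma called 139. At an unadjusted p under 0.05, 11 of the 31 genes (35.5%) were found, 8 higher and 3 lower, beside 10.8% of all genes. Without bc203 there were 6, and without bc207 there were 7. In those fits the calls over all genes, at an adjusted p under 0.05, fell from 139 to 88 and 94. The Fezf2-/- and Fezf2+/+ libraries did not overlap for 10 genes (32.3%), 8 higher and 2 lower, beside 13.0% of all genes. The median log2 fold change of the 31 genes was 0.09 and that of all genes 0.00, and the median absolute log2 fold change was 0.19 against 0.10.

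Receptors accounted for 5 of the 8 genes that were higher at an unadjusted p under 0.05. All 4 class A plexins, 4 of 5 class B, C and D plexins and both neuropilins had positive log2 fold changes, with medians of 0.20, 0.43 and 0.97. The median of all genes was 0.00. Plxna1 is counted as positive at 0.002, and the neuropilin median is the midpoint of Nrp2 at 1.73 and Nrp1 at 0.22. No receptor passed the adjusted threshold by limma. The signs of the ligands were mixed, with 3 of 7 positive in class 3 (median -0.13), 5 of 6 in class 4 (median 0.05) and 4 of 7 in classes 5 to 7 (median 0.08).

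**Figure D2:**
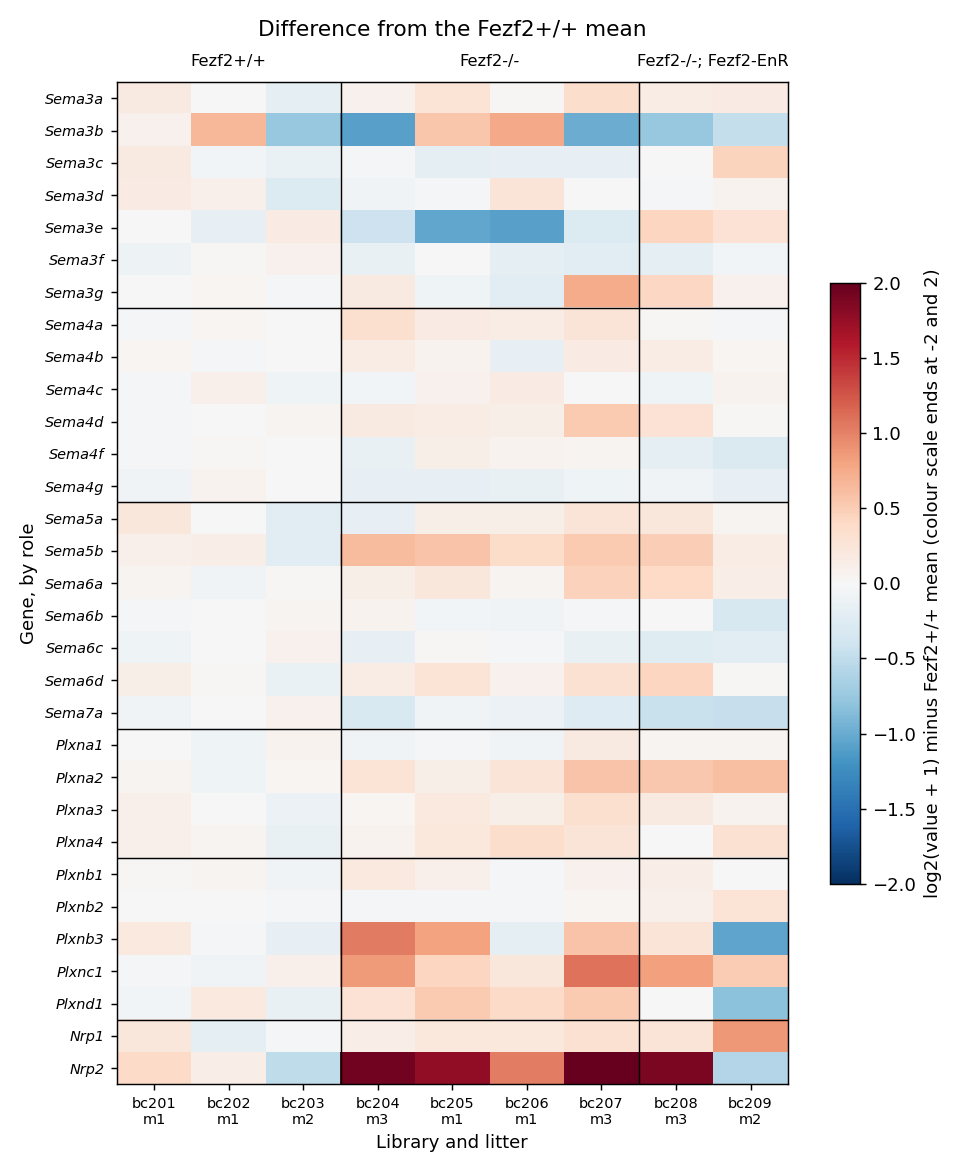
Difference of log2(value + 1) from the Fezf2+/+ mean (colour, red higher and blue lower, with the scale ending at 2 either way) for the 31 genes (rows, by role) in each library (columns, with the litter below). Nrp2 is red in the 4 Fezf2-/- libraries and in bc208 but blue in bc209, and Sema3e is blue in the 4 Fezf2-/- libraries and pale red in the libraries with the transgene.

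Sema3e, which unlike the other class 3 semaphorins binds its plexin, Plxnd1, without a neuropilin, and Plxnd1 itself lay on opposite sides of the wild type. Sema3e values were 203, 179 and 224 in Fezf2+/+ libraries bc201 to bc203, and 151, 97.0, 93.8 and 166 in Fezf2-/- libraries bc204 to bc207. Each Fezf2-/- library was below each Fezf2+/+ library, and the pups of litter m1 were the lowest. Sema3e differed by a log2 fold change of -0.71 ± 0.20 (SE; 95% interval -1.15 to -0.26), with an adjusted p of 0.198 by limma. With the litter as a block the log2 fold change was -0.91 and the adjusted p 0.00541, and within litter m1 the ratio of means was 0.50.

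Plxnd1 values were 3902, 4662 and 3677 in Fezf2+/+ libraries and 4964, 5826, 5291 and 5846 in Fezf2-/- libraries. The groups did not overlap, with 303 separating the nearest libraries, bc202 and bc204. The log2 fold change was 0.43 ± 0.16 (SE), with an adjusted p of 0.354 by limma and a ratio of 1.30 within litter m1. With the litter as a block it was 0.24 with an adjusted p of 0.566. The exact permutation test over libraries, two-sided, gave p = 0.0286 for Plxnd1 and 0.0571 for Sema3e, where 0.0286 is the smallest p that 35 splits of 3 against 4 allow.

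The 250 bases before the RefSeq start of this ligand and this receptor are shown because the pair had opposite signs in both comparisons with the Fezf2-/- cortices. They lie on GRCm38.p6 at chr5:14025026-14025275 on the plus strand (Sema3e) and chr6:115995006-115995255 on the minus strand (Plxnd1), and are written 5′ to 3′ on the gene's strand, with GC boxes (GGGCGG, or CCGCCC for the other strand) in capitals.
Sema3e: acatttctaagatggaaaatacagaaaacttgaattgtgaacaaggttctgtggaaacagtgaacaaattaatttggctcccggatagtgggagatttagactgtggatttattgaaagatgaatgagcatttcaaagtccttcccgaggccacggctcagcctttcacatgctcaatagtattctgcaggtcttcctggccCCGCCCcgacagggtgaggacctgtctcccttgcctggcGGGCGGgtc
Plxnd1: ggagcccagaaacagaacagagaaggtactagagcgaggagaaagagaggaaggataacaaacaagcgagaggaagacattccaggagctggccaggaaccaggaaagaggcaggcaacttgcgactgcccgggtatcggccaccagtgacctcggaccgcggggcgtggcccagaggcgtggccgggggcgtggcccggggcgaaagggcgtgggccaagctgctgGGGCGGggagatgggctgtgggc
The Sema3e stretch held 2 GC boxes and 7 CpG dinucleotides at a GC content of 48.0%, and the Plxnd1 stretch held 1 GC box and 16 CpGs at 64.8%. Over all 32851 such stretches in RefSeq, 32.7% held a GC box, and the median was 6 CpGs and 52.4% GC. For 26 of the 31 genes a stretch was at hand, 37 in all because some genes have several starts, and 27 of these (73.0%) held a GC box. None held TATAAA on either strand, which 12.4% of all stretches did. The stretches over all of RefSeq were not limited to genes that passed the filter on low values, as the 31 genes did. The 2 sets are therefore unlike, and the difference in shares was not tested.

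Nrp2 had the largest log2 fold change of the 31 genes in this comparison. Its values were 809, 681 and 437 in Fezf2+/+ and 2383, 2138, 1269 and 2786 in Fezf2-/- libraries. The lowest Fezf2-/- library, bc206, was 1.57 times as high as the highest Fezf2+/+ library, bc201. Its log2 fold change was 1.73 ± 0.48 (SE; 95% interval 0.66 to 2.79), with an adjusted p of 0.192 by limma and an exact permutation p of 0.0286. The adjusted p was 0.0180 when Fezf2-/- and Fezf2+/+ libraries alone were fitted, 0.0185 and 0.0181 without bc208 and without bc209, and 0.0322 within litter m1 alone, where the ratio of means was 2.29. These fits leave out 1 or both of the Fezf2-/-; Fezf2-EnR libraries, whose Nrp2 values lie far apart. In the other fits Nrp2 was not called, and with the litter as a block its log2 fold change was 0.91 with an adjusted p of 0.134, with sex as a covariate the adjusted p was 0.344, and without bc202 it was 0.463. Nrp1, the co-receptor of Sema3a, ranged from 687 to 917 in Fezf2+/+ and from 856 to 970 in Fezf2-/- libraries, and the groups overlapped. The marker sums of interneurons (7014 to 7808 in Fezf2-/-, 5582 to 5925 in Fezf2+/+ libraries), oligodendrocyte precursors and radial glia, and Slc17a6, were also higher in Fezf2-/- libraries, beside Nrp2 and the other genes that were higher there, and their part in these values was not tested.

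Among the other plexins, Plxnc1, the receptor of Sema7a, had values of 1044, 1006 and 1136 in Fezf2+/+ and 1905, 1429, 1237 and 2245 in Fezf2-/- libraries. The libraries did not overlap, and the pups of litter m3 (bc204 and bc207) were higher than those of litter m1. Plxnc1 had a log2 fold change of 0.64 ± 0.18 (SE), with an adjusted p of 0.177 by limma and 0.00629 by DESeq2. Within litter m1 the ratio of means was 1.30, against 1.60 over all libraries, the log2 fold change was 0.42 with the litter as a block, and a TEC annotation shares exonic bases with Plxnc1.

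Plxna2, a receptor of Sema6a and, with neuropilins, of class 3 semaphorins, had values of 7437, 6714 and 7311 in Fezf2+/+ and 8644, 7736, 8555 and 10614 in Fezf2-/- libraries. The groups did not overlap, and bc207 stood highest. This gave a log2 fold change of 0.30 ± 0.09 (SE), with an adjusted p of 0.244 by limma. Plxna4, which also binds Sema6a and works with Nrp1 in Sema3a signaling, had values of 10265, 9924 and 8587 in Fezf2+/+ and 10065, 11049, 12226 and 11399 in Fezf2-/- libraries. These groups overlapped through bc204, the log2 fold change was 0.22 ± 0.09 and the adjusted p 0.419 by limma. Plxna1 had values of 5631 to 6298 in Fezf2+/+ and 5691 to 6796 in Fezf2-/- libraries and a 95% interval of the log2 fold change from -0.15 to 0.16.

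Sema5b, a transmembrane ligand with thrombospondin repeats that repels axons through class A plexins, had the lowest adjusted p of the ligands. Its values were 357, 364 and 285 in Fezf2+/+ and 519, 494, 430 and 479 in Fezf2-/- libraries. The groups did not overlap. Its log2 fold change was 0.52 ± 0.12 (SE), with an adjusted p of 0.0898 by limma and 0.00695 by DESeq2, and a ratio of 1.28 within litter m1. Sema6a, the ligand of Plxna2 and Plxna4, had values of 1397, 1277 and 1361 in Fezf2+/+ and 1457, 1570, 1400 and 1851 in Fezf2-/- libraries. The nearest libraries, bc201 and bc206, were 2.73 apart. Its log2 fold change was 0.22 ± 0.10, with an adjusted p of 0.479 by limma, and it was 0.13 without bc207 and 0.12 with the litter as a block. Sema7a had values of 4136, 4330 and 4607 in Fezf2+/+ and 3507, 4166, 4030 and 3634 in Fezf2-/- libraries, which overlapped through bc205 and bc201. The log2 fold change was -0.19 ± 0.07 and the adjusted p 0.355 by limma, and with the litter as a block it was -0.12.

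Most class 4 ligands bind class B plexins. Sema4d, a ligand of Plxnb1, had values of 652, 668 and 700 in Fezf2+/+ and 766, 749, 731 and 965 in Fezf2-/- libraries, with a log2 fold change of 0.24 ± 0.11 and an adjusted p of 0.433 by limma. This became 0.15 without bc207 and 0.13 with the litter as a block. Sema4a had 366, 387 and 375 in Fezf2+/+ and 468, 420, 416 and 451 in Fezf2-/- libraries, with a log2 fold change of 0.22 ± 0.08 and an adjusted p of 0.308. The libraries of both genes did not overlap, and Sema4a and Sema4d were higher in Fezf2-/- cortex. Sema4g went the other way, with 2533, 2801 and 2660 in Fezf2+/+ and 2370, 2371, 2407 and 2520 in Fezf2-/- libraries, again with no overlap but only 12.8 between bc201 and bc207. Its log2 fold change was -0.14 ± 0.06 and the adjusted p 0.398. Sema4c, the highest of the class per kb, overlapped, with 1836, 2013 and 1763 in Fezf2+/+ and 1802, 1982, 2089 and 1885 in Fezf2-/- libraries. Sema3c, the highest of class 3, also overlapped, with 1927, 1631 and 1550 in Fezf2+/+ and 1661, 1487, 1519 and 1519 in Fezf2-/- libraries.

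The other 17 genes had log2 fold changes from -0.19 (Sema3b) to 0.56 (Plxnb3), and each of them overlapped between the genotypes with an unadjusted p of 0.0541 or more. Sema3b differed more between litters than between genotypes, with values of 33.0 to 53.2 in the 4 pups of litter m1 and 14.1 to 21.8 in the other 5 pups.

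**Figure D3:**
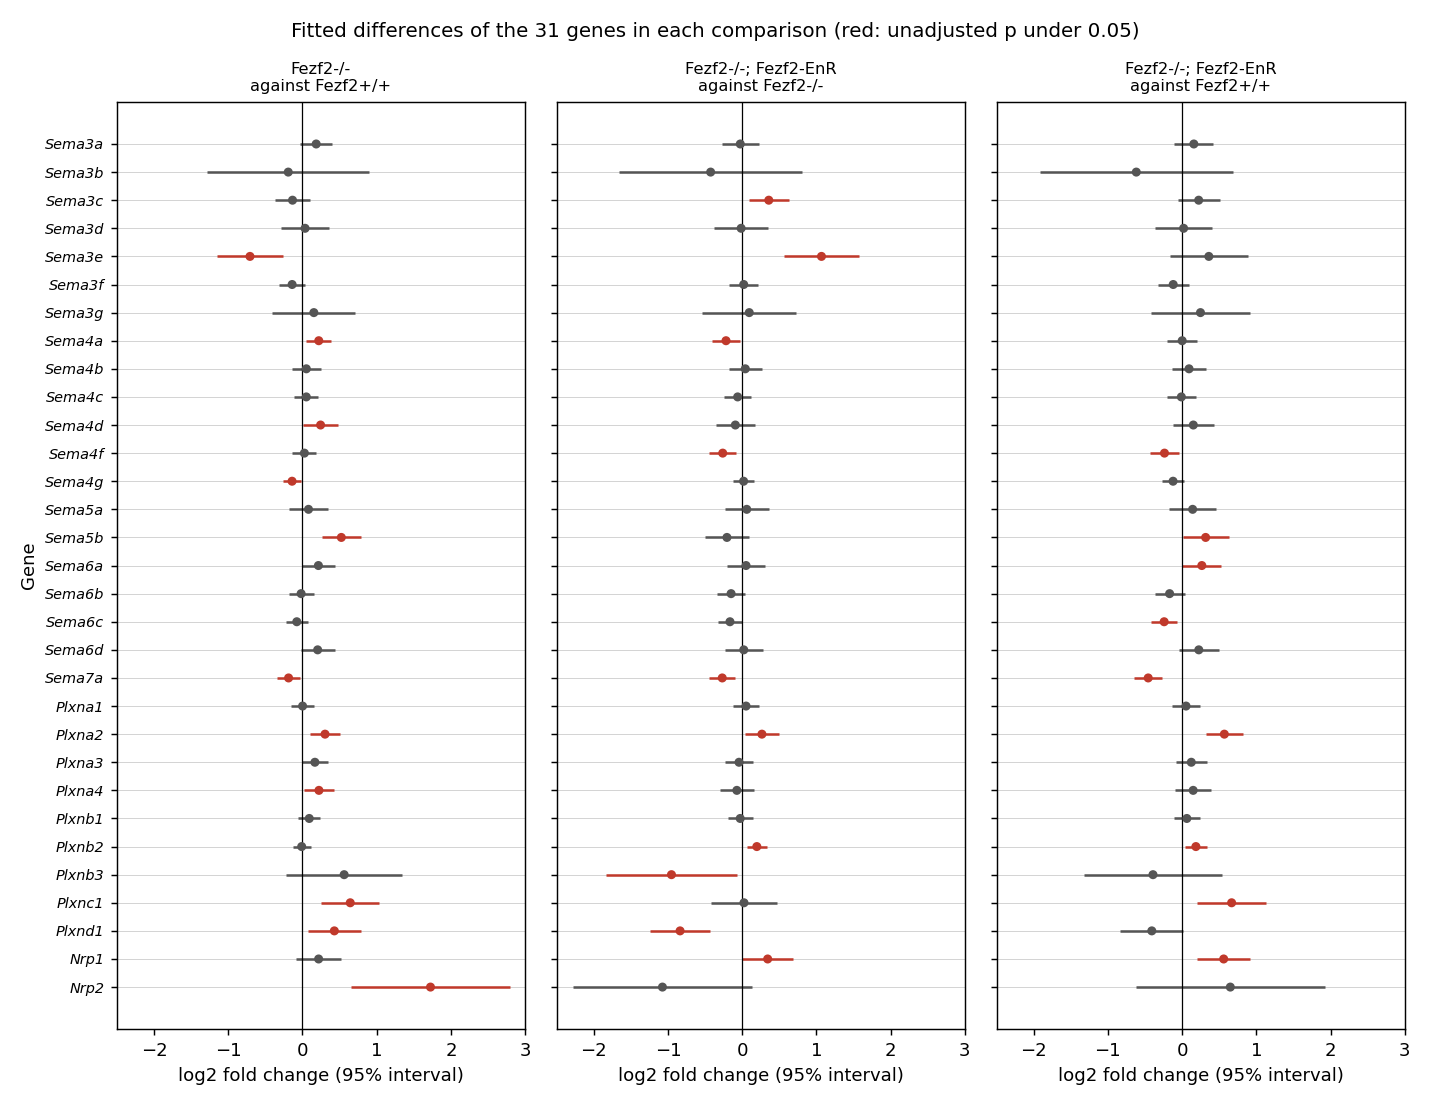
Fitted log2 fold change (points) with its 95% interval (lines) on the x axis for each of the 31 genes (y axis) in the 3 comparisons, with red marking an unadjusted p under 0.05. In the comparison of Fezf2-/- with Fezf2+/+ cortex the red intervals are those of 8 genes above 0 and 3 below, and in the middle panel Sema3e (1.07) and Plxnd1 (-0.84) lie on opposite sides of their values in the first panel.

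The transgene was examined by comparing Fezf2-/-; Fezf2-EnR with Fezf2-/- cortices. The comparison shares its 4 Fezf2-/- libraries with the first, and its values for a gene are therefore not independent of those of the first. Sema3e was 2.04 times as high with the transgene and Plxnd1 was 0.58 times as high. No gene of the 31 passed the adjusted threshold by limma with Benjamini-Hochberg adjustment, where 0.766% of all genes did. At an unadjusted p under 0.05 there were 10 genes (32.3%), 5 higher (Sema3e, Sema3c, Plxna2, Plxnb2 and Nrp1) and 5 lower (Plxnd1, Plxnb3, Sema4a, Sema4f and Sema7a), beside 16.9% of all genes. The libraries did not overlap for 8 genes (25.8%), 3 higher and 5 lower, beside 24.6% of all genes. The edgeR test called 0, beside 114 of all genes. DESeq2 called 2, Sema3e and Plxnd1, beside 450 of all genes where limma called 124. With sex as a covariate 2 genes had an unadjusted p under 0.05. In that fit the calls over all genes, at an adjusted p under 0.05, fell from 124 to 11. Its sex term rests on the Fezf2+/+ group, where bc201 alone was female. The median absolute log2 fold change was 0.09, against 0.14 for all genes. The red blood cell markers were lower in sum with the transgene, 3114 and 3257 against 3705 to 6661, and their part in these differences was not tested.

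Sema3e had values of 271 (bc208) and 247 (bc209) with the transgene, above each Fezf2-/- library and also above each Fezf2+/+ library. The log2 fold change against Fezf2-/- was 1.07 ± 0.23 (SE; 95% interval 0.57 to 1.57), with an adjusted p of 0.0686 by limma, 0.00152 by DESeq2 and 0.0212 with the litter as a block. Within litter m3 the ratio of the 1 pup with the transgene to the mean of its 2 Fezf2-/- littermates was 1.71. Against Fezf2+/+ the log2 fold change was 0.36 with an interval from -0.17 to 0.89, and it was -0.021 with the litter as a block.

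Plxnd1 had values of 4064 (bc208) and 2303 (bc209), both below each Fezf2-/- library. The log2 fold change against Fezf2-/- was -0.84 ± 0.18 (SE; 95% interval -1.24 to -0.43), with an adjusted p of 0.0759 by limma and 0.00125 by DESeq2. The ratio within litter m3 was 0.75. The log2 fold change moved to -1.25 without bc208 and to -0.43 without bc209, so its size rests on which pup represents the group. Within litter m2, the ratio of bc209 to its Fezf2+/+ littermate bc203 was 0.63.

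Nrp2 divided the pups with the transgene. Its value was 2304 in bc208, within the range of the Fezf2-/- libraries, and 414 in bc209, below each Fezf2+/+ library. Each lay near its own litter, at a ratio of 0.89 to the Fezf2-/- pups of litter m3 and of 0.95 to the Fezf2+/+ pup of litter m2. The littermates differ in genotype between these ratios. Litter, a different effect of the transgene in each pup, and the spread between single pups therefore cannot be told apart. The log2 fold change against Fezf2-/- was -1.08 ± 0.55 (SE), with an adjusted p of 0.341 by limma. It was -0.52 with the litter as a block, -2.31 without bc208 and 0.16 without bc209, and the last 2 fits leave 1 pup with the transgene. Nrp1 had 937 in bc208 and 1419 in bc209, and bc208 lay within the Fezf2-/- range. The striatal marker sum was also high in bc208 and bc204. Without both, the log2 fold change of Nrp2 was -2.24, where bc209 alone stands for the transgene. The part of the striatal markers in the values of bc208 was not tested.

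Sema5b and Plxnc1, which had been higher in Fezf2-/- than in Fezf2+/+ cortex, were not separated by the transgene. Sema5b had 467 and 369 in bc208 and bc209, and its log2 fold change against Fezf2-/- had an interval from -0.50 to 0.09. Plxnc1 had 1876 and 1514, with an interval from -0.42 to 0.46. Sema4a stood at 382 and 370, below each Fezf2-/- library and within the Fezf2+/+ range, with a log2 fold change of -0.22 ± 0.09 and an adjusted p of 0.238 by limma. Sema3c at 1697 and 2311 was above each Fezf2-/- library, and Sema4d at 821 and 681, Sema4g at 2525 and 2372, Sema4c at 1753 and 1963, Sema6a at 1773 and 1474, and Plxna4 at 9561 and 11771 gave no separation.

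**Figure D4:**
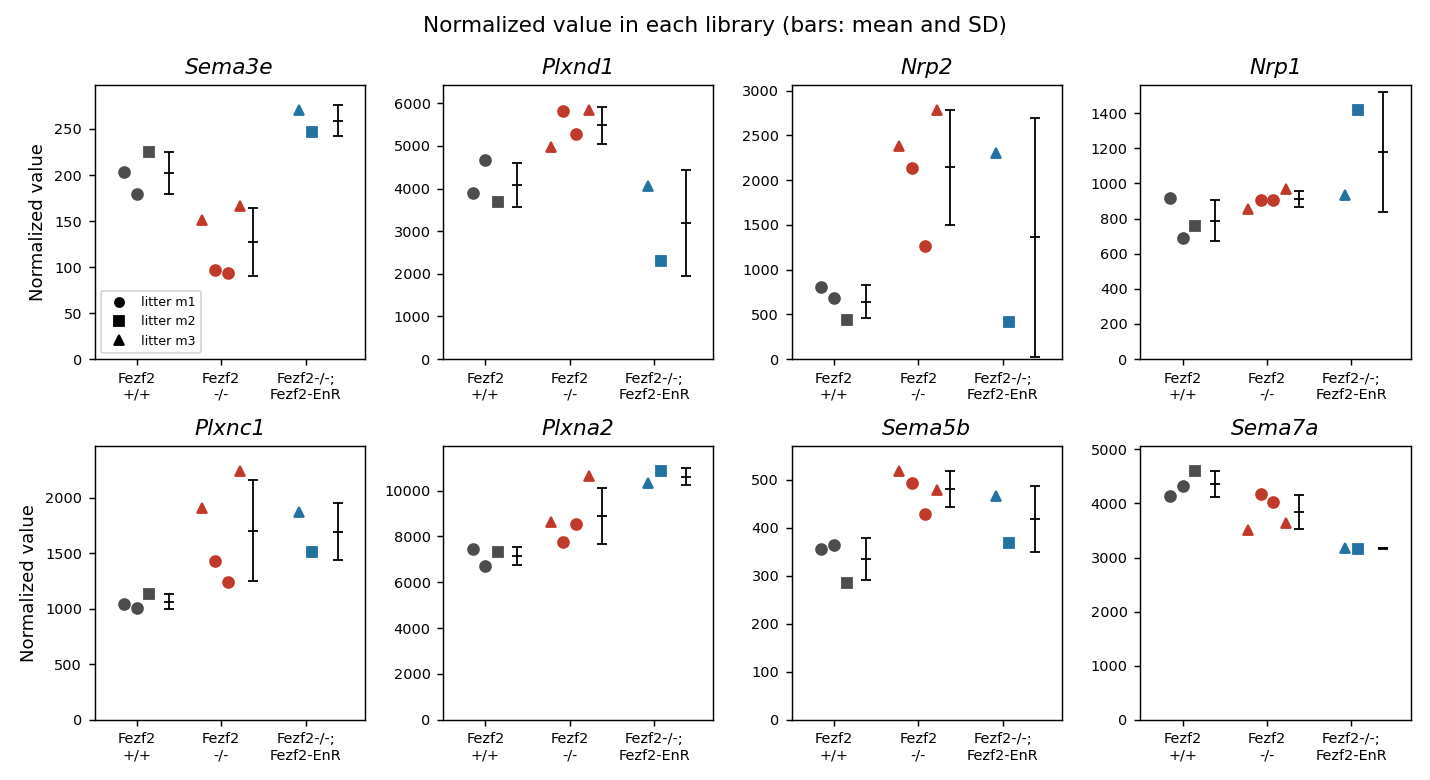
Normalized value (y axis, from 0) of 8 genes in each library, by genotype (x axis) and litter (marker), with the mean and SD of the group beside the points. The mean of Sema3e is 127 in Fezf2-/- libraries and 259 with the transgene, that of Plxnd1 is 5482 and 3184, and the 2 libraries with the transgene are far apart for Nrp2.

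The transgenic cortices were also compared with the wild type, Fezf2-/-; Fezf2-EnR against Fezf2+/+. Both pups with the transgene were female, and bc201 was the only female wild type. The adjusted threshold was passed by 0 of 31 genes by limma, beside 0.117% of all genes, and by 0 by edgeR, beside 15 of all genes. DESeq2 called 4 (Sema7a, Plxna2, Plxnc1 and Nrp1), beside 641 of all genes where limma called 19. At an unadjusted p under 0.05 there were 9 (29.0%), 6 higher and 3 lower, beside 19.3% of all genes, and the libraries of 12 genes (38.7%) did not overlap, beside 34.6% of all genes. With sex as a covariate 3 genes had an unadjusted p under 0.05. The calls over all genes, at an adjusted p under 0.05, then went from 19 to 13. With 2 libraries against 3, the smallest exact permutation p is 0.10.

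Sema7a and Plxna2 had the lowest adjusted p in this comparison. Sema7a was at 3181 and 3164 with the transgene, below each of the other 7 libraries, and its log2 fold change against Fezf2+/+ was -0.46 ± 0.08 (SE), with an adjusted p of 0.0943 by limma and 0.000441 by DESeq2. Plxna2 was at 10351 (bc208) and 10871 (bc209), above each Fezf2+/+ library, and bc208 was above 3 of the 4 Fezf2-/- libraries, with a log2 fold change of 0.57 ± 0.11, an adjusted p of 0.0963 by limma and 0.000732 by DESeq2. Both genes lay on the same side of Fezf2+/+ in the Fezf2-/- mean and farther from it with the transgene. Plxnc1 had a log2 fold change of 0.67 ± 0.21 against Fezf2+/+ and an adjusted p of 0.155 by limma, and with the litter as a block it was 0.33 with an adjusted p of 0.185.

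The wider semaphorin pathway was followed in a list of 46 genes, of which 11 are co-receptors and 35 are adaptors and effectors, and 44 passed the filter (Timd2 and Cd72 did not). Of the 44, limma called 0 in each of the 3 comparisons. At an unadjusted p under 0.05 there were 3 higher and 1 lower in Fezf2-/- against Fezf2+/+ cortex (9.09%, beside 10.8% of all genes), 2 higher and 2 lower with the transgene against Fezf2-/- (9.09%, beside 16.9%), and 10 higher and 2 lower against Fezf2+/+ (27.3%, beside 19.3%). The median log2 fold change of Fezf2-/- against Fezf2+/+ was 0.20 for the 9 co-receptors tested and -0.01 for the 35 adaptors and effectors. The largest positive values were those of Sh3bp1, a Rac GTPase-activating protein, at 0.36 ± 0.25, and the receptor tyrosine kinase Mst1r at 0.29 ± 0.28. The largest negative values were those of the actin oxidase Mical2 at -0.22 ± 0.11 and the tyrosine kinase Fes at -0.18 ± 0.25. The adjusted p-values of these genes were 0.509 to 0.833 by limma. The 3 higher genes with an unadjusted p under 0.05 were Rock1 at 0.29 ± 0.07, Chl1 at 0.29 ± 0.12 and Nrcam at 0.23 ± 0.10. The lower one was Pak1 at -0.15 ± 0.06. Of them Rock1 had the lowest adjusted p, 0.143 by limma.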

How the data were processed

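Poly(A)-selected RNA of P0 cortices was sequenced. The submitters' processing notes name STAR, Bowtie, DESeq and mm10, and the study's methods name TopHat; the counting tool, its use of strand and the annotation release are not given in the sources used here. The deposited table holds a normalized signal for 24624 genes, reads per gene that the authors divided by a DESeq size factor. Multiples of the value of 1 read (tolerance 0.006) gave whole reads for 100% of values in each library, 18716575 to 25127623 reads per library.

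The members and lists were chosen with earlier results of these data known. Groups were taken from the genotype label, and litters from the sample labels. With an unpaired design, limma (version 3.58.1 in R 4.3.3) was fitted to log2(value + 1) with a trended prior over 9 libraries in 3 genotypes, for the 16197 genes that averaged 10 or more, and p-values were adjusted by Benjamini-Hochberg. A fold change on this scale understates the change of low genes. The p-values set a difference between groups against the spread between pups within groups. In the unpaired fit that spread also holds differences of litter and sex. Because litters are shared across genotypes, litter was also fitted as a block. Other alternatives were the pseudocount, the filter, TMM and median-ratio factors, the groups fitted, sex as a covariate, litter m1 alone, each library left out, and edgeR 4.0.16 and DESeq2 1.42.0 on recovered reads. The fit without bc204 and bc208 was added after the data were seen. Scripts were tested on simulated data. Levels per kb use exon lengths of GENCODE M21 (GRCm38), in which the genes were found by identifier. Exons of Plxna1, Plxna4, Plxnb1, Plxnc1, Sema4a, Sema4c and Nrp1 overlap another annotated gene, and their values are uncertain to that extent. Sequences come from a table of RefSeq starts (GRCm38.p6) in which 26 of the 31 genes were matched; those of Plxna1, Plxna4, Sema3b, Sema3f and Sema6a were not used here. Values per library were given for genes called, genes without overlap, Sema3e, Plxna2 and Plxnd1, and, in each role group, the highest per kb and the largest log2 fold change. Of the pathway list, with none called, the 2 largest changes in each direction were named. Its genes with an unadjusted p under 0.05 in Fezf2-/- against Fezf2+/+ cortex were named as well.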

Additional observations from a re-analysis of the deposited data

Results flagged for a closer look

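In the 4 Fezf2-/- libraries, 3 of 31 genes had 1 library far from the others by Dixon's 95% criterion, which chance alone meets in about 1 in 20 groups. Sema3d stood at 109 in bc206, Sema4d at 965 in bc207 and Plxna1 at 6796 in bc207.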

How the results depend on the processing

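The count of 0 genes called among the 31 did not change with the pseudocount, the filter, the scaling factors, sex as a covariate or edgeR. In Fezf2-/- against Fezf2+/+ cortex it became 1 with those groups alone (Nrp2) and with the litter as a block (Sema3e), and 2 by DESeq2 (Plxnc1 and Sema5b) and within litter m1 (Nrp2 and Sema3e), and it ranged from 0 to 1 over the fits that each leave out a library. With the transgene against Fezf2-/- it became 1 with the litter as a block (Sema3e), 2 by DESeq2, 4 without bc204 and bc208 (Nrp2, Plxnd1, Sema3c and Sema4f), and 0 to 5 with a library left out, the highest without bc208 (Nrp1, Nrp2, Plxnb2, Plxnd1 and Sema3c). Against Fezf2+/+ it became 4 by DESeq2, 2 without bc204 and bc208 (Nrp1 and Plxnd1), and 0 to 2 with a library left out. Where bc208 or bc209 was left out, the lone library is assumed to vary like the other groups, and the cause of these changes was not tested. With a library left out, the log2 fold change of Nrp2 with the transgene ranged from -2.31 (without bc208) to 0.16 (without bc209) against Fezf2-/- and from -0.59 to 1.89 against Fezf2+/+, and that of Plxnd1 against Fezf2+/+ from -0.82 (without bc208) to 0.0017 (without bc209). Without bc204 and bc208, Nrp2 against Fezf2+/+ was at -0.59. Sema3c with the transgene against Fezf2-/- moved from 0.36 to 0.13 without bc209 and 0.08 with sex as a covariate. Plxna4 in Fezf2-/- against Fezf2+/+ cortex was at 0.14 without bc203. With the litter as a block, Sema3e against Fezf2+/+ was at -0.021. The litter block changed no other call among the 31. Over all genes, the 139, 124 and 19 calls of the 3 comparisons became 315, 450 and 641 by DESeq2 and 66, 11 and 13 with sex as a covariate, the last 2 were 1088 and 491 without bc208, and 809 and 276 without bc204 and bc208, so that the added calls among the 31 genes came with many more over all genes. The 2 libraries with the transgene limit every statement on it.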
